A study of Mus musculus with 9 samples.

Results

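The genes described here are markers of cholinergic neurons and of brainstem motor neurons: Chat, Slc18a3, Slc5a7, Prph, Isl1, Calca and Calcb. They were followed in the substantia nigra, the midbrain region of the dopamine neurons that project to the striatum, as a readout of the oculomotor nucleus and other cholinergic cell groups that lie close to it. The 7 genes were chosen on the low values of Prph in the arrays labelled 1 mg/kg, so the comparison of those arrays with saline is given as a description and was not tested. Probe sets were found through the array's gene annotation. Of the 7 genes, 5 have a probe set that the annotation used here assigns to them, with 6 probe sets among the 45037 analysed, and Isl1 is the gene with more than 1. Chat and Calca are not analysed here.

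From postnatal day 28, Swiss Webster mice were injected intraperitoneally on 5 days a week for 12 weeks. They received saline or methylphenidate (MPH), a blocker of the dopamine and noradrenaline transporters, at a dose of 1 mg/kg or of 10 mg/kg. After a washout of 7 days, RNA of the dissected substantia nigra was hybridised to Affymetrix HT MG-430 PM arrays, with 3 arrays in each of the 3 groups. All 9 arrays share the strain and the injection schedule, and the labels speak of a single mouse for each array and do not describe the animals further. The groups are called by the labels of their arrays, because the genes that the study lists under each dose have the values of the arrays labelled with the other dose, and the values do not show which assignment is right. The 1 mg/kg arrays and 10 mg/kg arrays below are those so labelled.

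Acetylcholine is made from choline by choline acetyltransferase, the product of Chat, is loaded into synaptic vesicles by the transporter VAChT (Slc18a3), and is renewed from choline that the high-affinity transporter CHT1 (Slc5a7) takes back up into the terminal. Motor neurons of the cranial nerves and spinal cord use this machinery, and many of them also carry peripherin (Prph), an intermediate filament protein of neurons with peripheral axons, and the peptides called calcitonin gene-related peptide (CGRP), which Calca and Calcb encode. Isl1 is a LIM homeodomain transcription factor that is needed for motor neurons to form and that also marks other neurons, among them cell groups of the hypothalamus and striatum. In the mouse reference annotation Slc18a3 lies inside Chat, an arrangement known as the cholinergic gene locus, and Calca and Calcb lie near each other on chromosome 7.

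The log2 values of an array gain 1 when the signal doubles, up to a compression of low signals. The nonspecific control probe sets, which should find no target, had a median of 2.93, with 75% of their values at or below 3.22 and a highest value of 5.29. The median over all probe sets was 4.51. Th and Slc6a3, which make and take up dopamine, were between 10.31 and 11.18 and between 11.63 and 12.09 over the 9 arrays, so the defining genes of nigral dopamine neurons were present. The genes that would mark oculomotor neurons were near the control level: Phox2a, a factor that the oculomotor nucleus needs to form, lay between 3.20 and 3.46, and Tbx20, a factor of cranial motor neurons, between 2.84 and 3.35. Slc18a3 and Slc5a7 lay at the same level, as given below. Pitx3, a transcription factor on the list of dopamine neuron genes, was low too, between 3.65 and 4.30. Low values of a transcription factor therefore do not show that its cells are absent. The set is therefore described as Prph, Isl1 and the transporter and CGRP genes, since the levels of its cholinergic members do not mark such neurons in these arrays.

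The promoters of Prph and Isl1 are shown because these genes varied most between the arrays. Each window holds 250 bases before and 50 bases after the start of the gene in RefSeq (build GRCm38.p6), written 5′ to 3′ on the strand of the gene. Capitals mark TATAAA, the TATA box letters, and TAAT, the core letters bound by many homeodomain proteins, on either strand.
Prph, chr15:99054924-99055223, plus strand: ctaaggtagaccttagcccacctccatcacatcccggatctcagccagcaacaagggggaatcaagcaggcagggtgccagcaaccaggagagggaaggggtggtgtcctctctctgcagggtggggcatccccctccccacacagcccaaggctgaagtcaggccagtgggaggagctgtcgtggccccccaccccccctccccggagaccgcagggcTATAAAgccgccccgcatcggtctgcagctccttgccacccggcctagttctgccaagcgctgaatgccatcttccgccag
Isl1, chr13:116309639-116309938, minus strand: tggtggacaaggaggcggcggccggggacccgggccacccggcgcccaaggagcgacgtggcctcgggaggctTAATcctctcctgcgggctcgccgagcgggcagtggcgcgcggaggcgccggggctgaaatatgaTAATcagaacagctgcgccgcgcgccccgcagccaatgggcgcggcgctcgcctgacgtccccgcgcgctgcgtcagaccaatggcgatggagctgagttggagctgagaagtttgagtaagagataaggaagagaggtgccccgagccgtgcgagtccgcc
The Prph window holds TATAAA once, on its own strand, starting at base 220 of the window, and no TAAT. The Isl1 window holds TAAT at bases 74 and 139 and no TATAAA. Of all 32851 windows of this length, 13.6% hold TATAAA and 58.0% hold TAAT. The E-box letters, CANNTG, are in 72.3% of the windows, at base 148 of that of Isl1 and not in that of Prph. Windows of 6 of the 7 genes were in the table used.

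Prph was low in the 1 mg/kg arrays. Its log2 values in the saline arrays were 4.88, 5.55 and 5.06, those in the 1 mg/kg arrays were 3.88, 3.96 and 4.11, and those in the 10 mg/kg arrays were 5.10, 4.38 and 4.61, for replicates 1, 2 and 3. Every 1 mg/kg array lay below all saline arrays and below all 10 mg/kg arrays, while the 10 mg/kg arrays overlapped with the saline arrays, with replicate 1 inside their range. Group means were 5.16 ± 0.35 in saline, 3.99 ± 0.12 at 1 mg/kg and 4.70 ± 0.37 at 10 mg/kg (SD, n = 3 each). Of the control values, 98.6% lay below the saline mean and 95.7% below either MPH mean.
The difference of the 1 mg/kg arrays from saline, which chose the genes, was -1.18 on the log2 scale (standard error 0.23), a signal 0.442 times that of saline. Between arrays of the same replicate number it was -0.996, -1.59 and -0.94. Over all probe sets, 18 had a difference as low or lower, Prph included. In bulk tissue, fewer cells of a type and less RNA per cell cannot be told apart.

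In the 10 mg/kg arrays, Prph differed from saline by -0.46 on the log2 scale (standard error 0.23, adjusted p = 0.554, limma, with replicate as a block). By replicate number the differences were 0.22, -1.17 and -0.45, so 2 of 3 pointed down. The 3 saline arrays serve in both comparisons, and this test is therefore not independent of the values that chose Prph. Saline replicate 2 held the highest Prph value of the 9 arrays. Without it the differences were -0.90 in the 1 mg/kg arrays and -0.18 in the 10 mg/kg ones (adjusted p = 0.793, limma). Replicate 1 of the 10 mg/kg arrays had high values of some cortical genes, with Icam5 at 7.19 against at most 5.74 in the other 8 arrays. Not all cortical genes shared this, and Cux2 had its lowest value there, 8.07. Without that array the difference at 10 mg/kg was -0.76 (adjusted p = 0.524, limma). Without 10 mg/kg replicate 2 it was -0.22 (adjusted p = 0.76, limma).

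**Figure D1:**
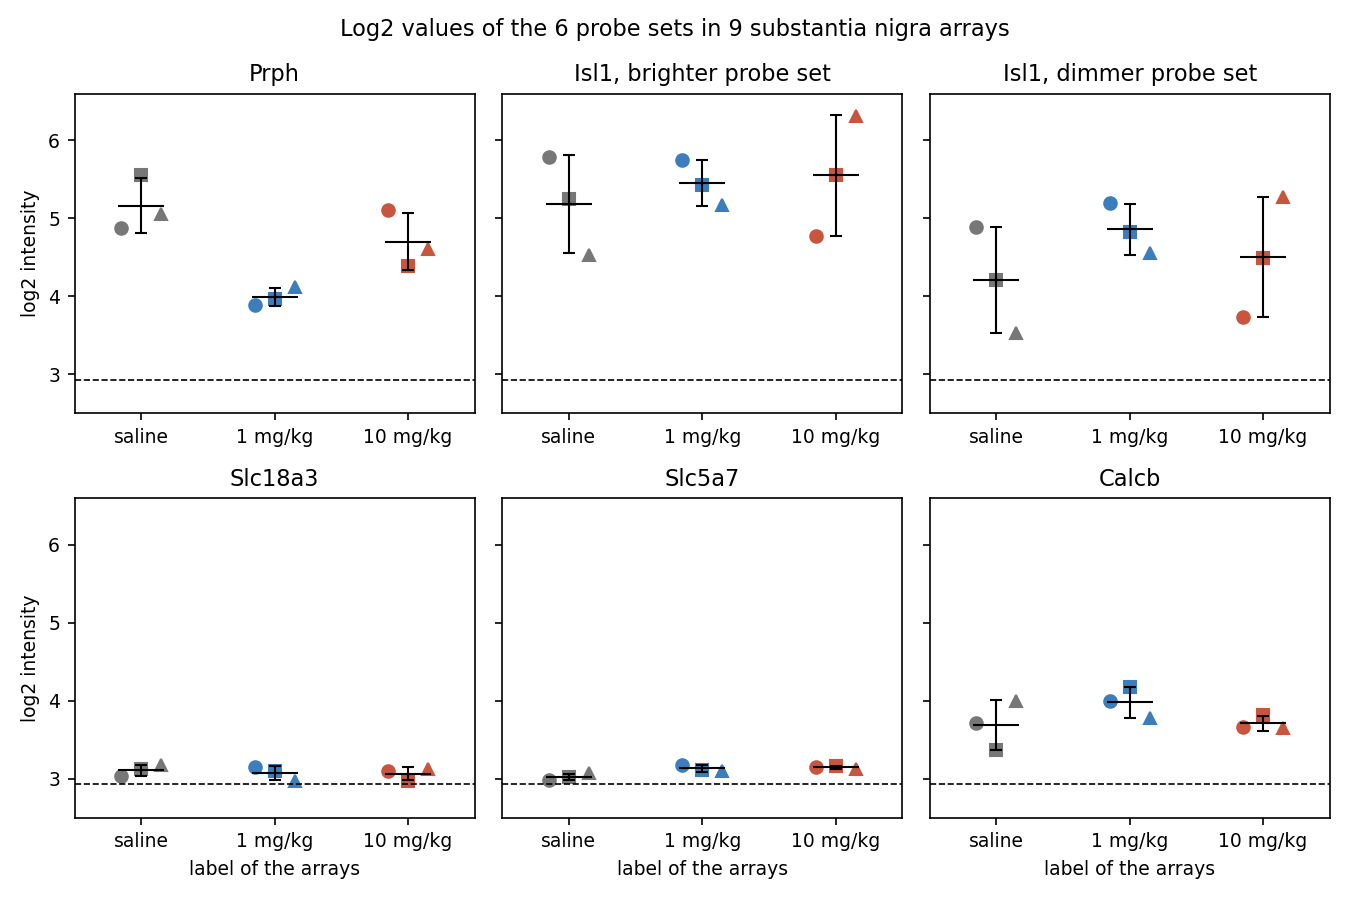
Log2 intensity (vertical axis) of the 6 probe sets in each array, by label (horizontal axis). Circles, squares and triangles are replicates 1, 2 and 3, bars show the group mean and SD (n = 3), and the dashed line is the control median of 2.93. Prph lies between 3.88 and 4.11 in the 1 mg/kg arrays, below the other arrays, and Slc18a3 and Slc5a7 lie close to the dashed line in all groups.

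The genes of the cholinergic terminal were near the control level in every array. Slc18a3 had log2 values of 3.03, 3.13 and 3.17 in the saline arrays, 3.15, 3.10 and 2.98 in the 1 mg/kg arrays and 3.10, 2.97 and 3.13 in the 10 mg/kg arrays. The groups overlapped. Slc5a7 had log2 values of 2.99, 3.03 and 3.07 in the saline arrays, 3.18, 3.12 and 3.10 in the 1 mg/kg arrays and 3.15, 3.16 and 3.13 in the 10 mg/kg arrays. All 6 MPH arrays lay above all saline arrays for Slc5a7, by differences of 0.11 and 0.12 on the log2 scale (standard error 0.07), and the second had an adjusted p of 0.604 (limma). The 18 values of these 2 genes were all below 3.22, the level that 75% of the control values did not pass, so neither a level nor a change of VAChT or CHT1 mRNA can be read from them. Slc18a3 differed from saline by -0.05 in the 10 mg/kg arrays (standard error 0.09, adjusted p = 0.89, limma).

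Isl1 varied more within the groups than between them. Its brighter probe set had log2 values of 5.78, 5.25 and 4.53 in the saline arrays, 5.75, 5.43 and 5.17 in the 1 mg/kg arrays and 4.77, 5.56 and 6.32 in the 10 mg/kg arrays. The dimmer probe set had values of 4.89, 4.20 and 3.53, of 5.20, 4.82 and 4.55, and of 3.74, 4.49 and 5.27 in the same arrays. The groups overlapped in both probe sets. Saline replicate 3 and 10 mg/kg replicate 1 had the lowest values in both, and 10 mg/kg replicate 3 had the highest. The 2 probe sets had a correlation of 0.934 over the 9 arrays, so the spread of Isl1 between arrays appears in both measurements.
The brighter probe set differed from saline by 0.26 in the 1 mg/kg arrays and by 0.36 in the 10 mg/kg ones (standard error 0.44, adjusted p = 0.814 for the second, limma). The dimmer one differed by 0.65 and 0.29 (standard error 0.45, adjusted p = 0.859 for the second, limma). By replicate number the brighter probe set gave -0.03, 0.18 and 0.64 at 1 mg/kg and -1.01, 0.31 and 1.79 at 10 mg/kg. Without saline replicate 3 the brighter probe set was at -0.19 and -0.09 relative to saline, on the other side of 0 in both comparisons. Without 10 mg/kg replicate 1 the second difference was 0.97 (adjusted p = 0.556, limma), and without 10 mg/kg replicate 3 it was -0.26 (adjusted p = 0.858, limma).

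Calcb, which encodes the second CGRP peptide, had low values. They were 3.72, 3.36 and 3.999 in the saline arrays, 3.996, 4.17 and 3.78 in the 1 mg/kg arrays and 3.66, 3.82 and 3.65 in the 10 mg/kg arrays. The groups overlapped. Differences from saline were 0.29 and 0.02 on the log2 scale (standard error 0.17, adjusted p = 0.98 at 10 mg/kg, limma). Without saline replicate 2 they were 0.05 and -0.22.

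Counted over the 6 probe sets, 1 (Prph) was lower in all 1 mg/kg arrays than in all saline arrays, where 12.4% of all probe sets were, and 1 (Slc5a7) was higher, where 10.7% of all probe sets were. At 10 mg/kg, 0 were lower without overlap (13.1% of all probe sets) and 1 (Slc5a7) was higher (10.3% of all probe sets). Prph in the 10 mg/kg arrays was above all 1 mg/kg arrays, as 8.72% of all probe sets were. The low 1 mg/kg values chose Prph, so its counts against those arrays are a description. At an adjusted p of 0.05, 0 of the 6 passed limma's test at 10 mg/kg with the replicate block, where 0% of the 45037 probe sets passed. Without the block 0.255% of all probe sets passed (115), and again 0 of the 6. At an unadjusted p of 0.05 or less 0 of the 6 were found there, against 9.59% of all probe sets. The medians of the 6 differences were 0.18 at 1 mg/kg and 0.07 at 10 mg/kg, against -0.0046 and -0.0075 over all probe sets. The signs of the differences were thus mixed, and Prph had negative and both Isl1 probe sets positive differences in both comparisons. These signs are a description, since Slc18a3 and Slc5a7 lay at the control level. The brighter Isl1 probe set and, at 10 mg/kg, Calcb also changed sign when some single arrays were left out. Over the 9 arrays the correlation of Prph with Isl1 was -0.372.

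**Figure D2:**
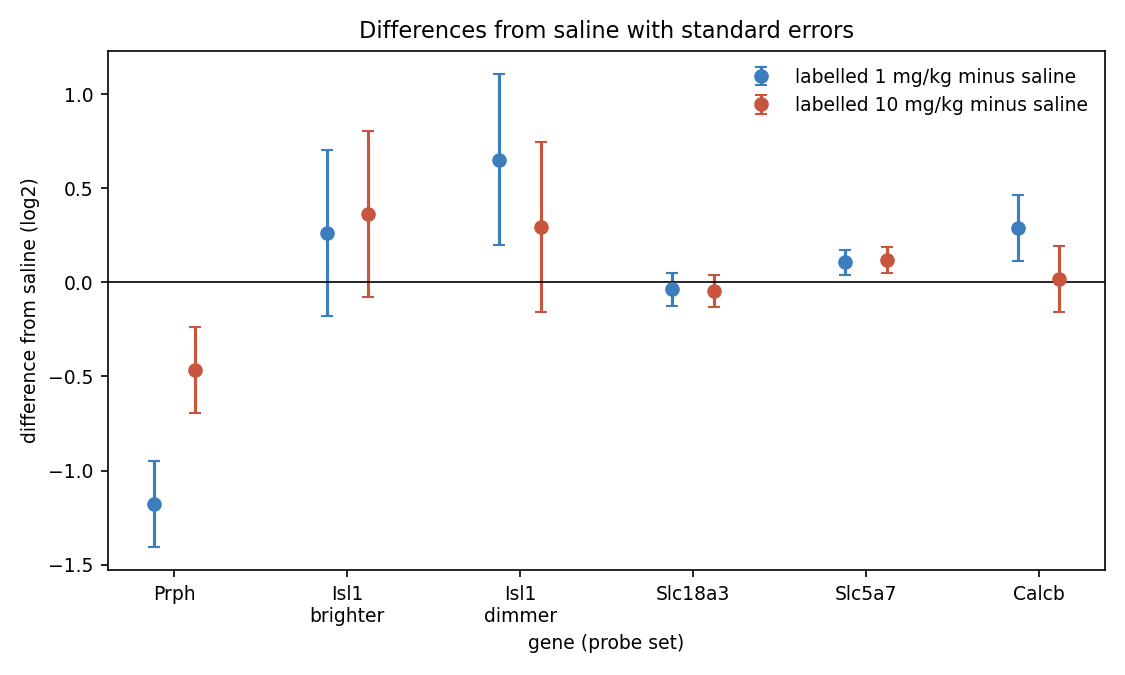
Difference from saline (vertical axis, log2) of each probe set (horizontal axis) in the 1 mg/kg arrays (blue) and 10 mg/kg (red). Points are fitted differences, and bars are standard errors from limma with the replicate block. Prph is at -1.18 and -0.46, and the bars of the brighter Isl1 probe set cross 0 in both comparisons.

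Other genes of acetylcholine handling were looked up as a list of 19, of which 16 are measured. Of these, 10 had negative and 6 positive differences in each comparison, with medians of -0.07 and -0.08. In the 10 mg/kg arrays 6 were lower without overlap (13.1% of all probe sets) and 0 were higher (10.3%), and by limma with the block 0 passed in either direction. In the 1 mg/kg arrays 2 were lower (12.4%) and 2 higher (10.7%) without overlap. Slc10a4, a vesicle protein of cholinergic and monoamine neurons, had the lowest differences of the list, -0.52 at 1 mg/kg and -0.55 at 10 mg/kg (standard error 0.09). The second had an adjusted p of 0.329 with the block and 0.0451 without it (limma). Its log2 values were 9.32 to 9.56 in the 1 mg/kg arrays and 9.38 to 9.59 in the 10 mg/kg ones, against 9.97 to 10.05 in saline, well above the control level. The genes of dopamine neurons, a list of 17, were lower alongside it, with a mean log2 value of 7.60 to 7.72 in the 1 mg/kg arrays and 7.78 to 7.83 in the 10 mg/kg ones, against 8.17 to 8.41 in saline, and their part in the values of Slc10a4 was not tested.
Ache, the enzyme that breaks down acetylcholine, differed by -0.26 and -0.31 (standard error 0.08, adjusted p = 0.424 for the second, limma). The highest differences in the list were those of Prima1, the membrane anchor of acetylcholinesterase, at 0.37 at 1 mg/kg, and of the muscarinic receptor Chrm1 at 0.39 at 10 mg/kg (standard error 0.27). Chrm1 was at 5.89 in 10 mg/kg replicate 1, the array with high values of some cortical genes, and between 4.62 and 5.03 in the others.

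Of 12 transcription factors of motor neurons measured from a list of 13, 7 had negative and 5 positive differences in each comparison, with medians of -0.04 and -0.04. Lhx4, which takes part in motor neuron specification, was lowest at 1 mg/kg at -0.19, and Nkx2-2, a ventral neural tube factor that is also expressed in the oligodendrocyte lineage, was highest at 0.48. At 10 mg/kg they were Ldb1, the cofactor of LIM homeodomain proteins, at -0.22 (adjusted p = 0.54, limma), and Hoxb5, a hindbrain factor, at 0.44 (adjusted p = 0.465, limma). Hoxb5 was at 3.80 in 10 mg/kg replicate 1 and at 3.28 and 3.27 in replicates 2 and 3, against 2.90 to 3.09 in saline, which is near the control level. Lhx4 (3.15 to 3.43), Mnx1 (3.00 to 3.12), Phox2a and Tbx20 lay near that level too, so no direction can be read from them. Isl2, a close relative of Isl1 in motor neurons, lay between 3.33 and 3.70 in the 9 arrays.

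The neurofilament genes had small differences from saline. Nefl, Nefm and Nefh encode the neurofilament chains, with which peripherin can assemble. Their differences in the 1 mg/kg arrays were 0.00, 0.10 and 0.10, and in the 10 mg/kg ones 0.01, 0.00 and -0.05 (standard errors 0.11 to 0.15), at log2 values of 10.50 or more in every array. Ina, the alpha-internexin of central neurons, differed by 0.24 and 0.08. Of the 7 filament genes in the list, 0 were negative at 1 mg/kg, and the highest was Vim, a filament of glia and vessels, at 0.50 and 0.62 (standard error 0.24, adjusted p = 0.494 for the second, limma). The correlation of Prph with Nefl, Nefm and Nefh over the 9 arrays was -0.415, -0.546 and -0.53, and that with Ina was -0.808.

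Of 9 measured genes of the CGRP receptor and calcitonin family out of 11, 3 had negative and 6 positive differences at 1 mg/kg and 4 negative and 5 positive at 10 mg/kg, with medians of 0.07 and 0.01. The receptor Calcrl differed by 0.33 and 0.47 (standard error 0.20, adjusted p = 0.522 for the second, limma) and was the highest of the list at 10 mg/kg. Adm, the vessel peptide adrenomedullin, was the lowest there at -0.26. Calcr, the calcitonin receptor, was the lowest at 1 mg/kg at -0.48. Adm (3.70 to 4.41) and Calcr (3.39 to 4.37) had low values, below the median over all probe sets. The measured genes of this list include Calcb, given above. Ramp3, a partner protein of these receptors, was the highest at 1 mg/kg at 1.12 (standard error 0.78). Its log2 values were 7.78, 5.20 and 7.27 in the saline arrays, 8.04, 8.12 and 7.43 in the 1 mg/kg arrays and 5.37, 7.75 and 6.71 in the 10 mg/kg ones, so saline replicate 2 and 10 mg/kg replicate 1 were low.

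Some genes of neighbouring cell groups varied with Prph. Cartpt, a peptide gene of the Edinger-Westphal nucleus beside the oculomotor nucleus and of many other neurons, had log2 values of 6.44, 8.41 and 6.66 in the saline arrays, 5.83, 5.70 and 6.72 in the 1 mg/kg arrays and 8.29, 6.67 and 6.61 in the 10 mg/kg ones. Its correlation with Prph was 0.82. Ucn, the peptide that defines that nucleus, lay between 3.15 and 3.82. Cck, the other measured gene of the Edinger-Westphal list, did not vary as Cartpt did, with differences from saline of 0.21 and 0.10. Its lowest value, 9.40, was in saline replicate 2, where Cartpt and Prph were highest. The 3 measured of 4 genes in that list had a mean log2 value of 6.33 to 6.59 in the 1 mg/kg arrays and 6.51 to 7.24 in the 10 mg/kg ones, against 6.49 to 7.21 in saline.
Of the raphe list, Tph2, Slc6a4 and the serotonin receptor Htr1a were highest in saline replicates 2 and 3, and Gata2, Gata3, Ddc and Maob did not share that order. Tph2, the enzyme of serotonin synthesis, was at 4.24, 7.47 and 6.96 in the saline arrays, at 3.88, 3.20 and 3.47 in the 1 mg/kg arrays and at 5.21, 3.61 and 3.32 in the 10 mg/kg ones. Its correlation with Prph was 0.835, and that of the serotonin transporter Slc6a4 was 0.836. Of the 7 measured of 9 raphe genes, 6 were lower without overlap in the 1 mg/kg arrays (12.4% of all probe sets) and 2 in the 10 mg/kg ones (13.1% of all probe sets), and Ddc, counted in both, is also on the list of dopamine neuron genes. Their mean log2 value was 6.33 to 6.56 and 6.44 to 6.97 in these groups, against 6.76 to 7.81 in saline.
Thalamic genes varied in both directions. Of the 9 in the list, 7 had positive and 2 negative differences at 1 mg/kg, with 5 higher and 1 lower without overlap (10.7% and 12.4% of all probe sets), and 4 had positive and 5 negative ones at 10 mg/kg, with medians of 0.84 and -0.04. Calb2, the calcium-binding protein calretinin, was the lower one, at -0.77 and -0.33, and Slc17a6, a vesicular glutamate transporter, was at -0.05 and 0.04. Tcf7l2, a transcription factor of thalamic neurons, had a correlation of -0.911 with Prph, Rora one of -0.873 and Lhx9 one of -0.89. The mean log2 value of the 9 thalamic genes was 8.59 to 8.76 in the 1 mg/kg arrays and 8.02 to 8.55 in the 10 mg/kg ones, against 7.54 to 8.40 in saline.
Dopamine neuron genes varied with Prph as well, with a correlation of 0.923 for the transcription factor Nr4a2, 0.722 for Th and 0.475 for Slc6a3, and all 17 of the list had negative differences in both comparisons.
The difference between the 3' and 5' control probe sets of Actb grows as RNA degrades. It was 1.04 to 1.19 in the 1 mg/kg arrays and 1.03 to 1.12 in the 10 mg/kg ones, against 0.88 to 0.93 in saline. That of Gapdh overlapped between the groups. The correlation of Prph with this difference was -0.64 for Actb and -0.038 for Gapdh. The part of these neighbouring cells, of dopamine neurons and of RNA quality in the low Prph values was not tested. These correlations are over 9 arrays that share 1 normalisation and hold the group differences, and they are given without a test.

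Of the measured genes, those with the pattern most like Prph were sought by Pearson's correlation over the 9 arrays, among 1445 probe sets of a single gene with a mean of 5 or more and an SD of 0.25 or more. The 5 highest were Dcc (0.986), the netrin receptor that guides axons, Gch1 (0.959), the first enzyme of tetrahydrobiopterin synthesis and a gene of the dopamine neuron list, Bex4 (0.959), Ebf3 (0.957), a transcription factor of the early B-cell factor family, and Crip2 (0.953). Within the groups, after the mean of each group was taken away, these correlations were 0.965, 0.828, 0.889, 0.956 and 0.974. The genes were chosen on the same arrays, so high values within the groups are no separate test.
Dcc had log2 values of 8.47, 8.84 and 8.53 in the saline arrays, 8.07, 8.05 and 8.15 in the 1 mg/kg arrays and 8.53, 8.26 and 8.28 in the 10 mg/kg ones. It differed from saline by -0.52 and -0.26 (adjusted p = 0.552 for the second, limma). As with Prph, saline replicate 2 was the highest array and the 1 mg/kg arrays were the lowest. Ebf3 differed by -0.89 and -0.51 (adjusted p = 0.557 for the second, limma), and Gch1 by -0.88 and -0.40 (adjusted p = 0.424 for the second, limma).

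**Figure D3:**
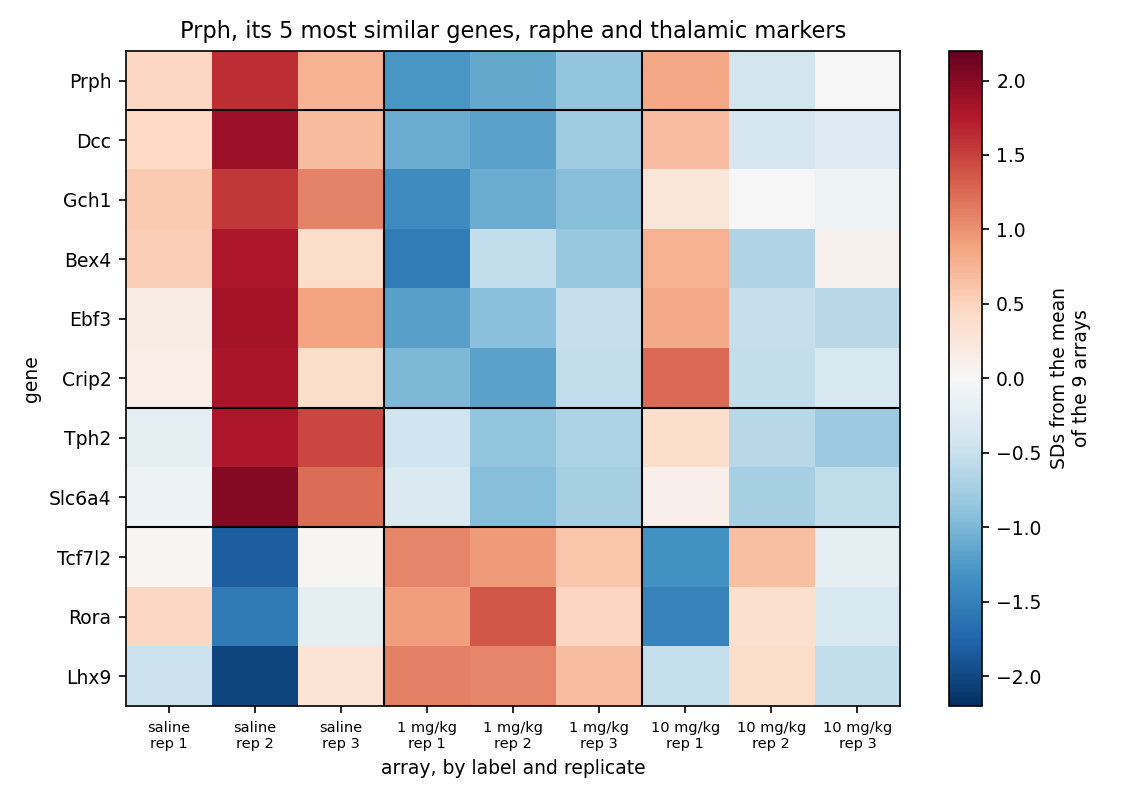
Values of Prph, its 5 most similar genes, 2 raphe genes and 3 thalamic genes (rows) in the 9 arrays (columns), as SDs from the mean of each gene over the arrays. Saline replicate 2 is highest for Prph and the 5 genes below it and low for the thalamic genes, while the 1 mg/kg arrays are low for Prph and these 5 genes and high for the thalamic ones.

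Isl1 took the place of Chat in the same search, a choice made after its values were seen. The 5 genes with the highest correlation to its brighter probe set, among 1444 probe sets, were Lst1 (0.907), a probe set of Gad1 (0.884), the enzyme of GABA synthesis, Catspere2 (0.856), Pmch (0.834), the precursor of melanin-concentrating hormone, which marks neurons of the lateral hypothalamus, and Gm13205 (0.832). The brightest probe set of Gad1 had a correlation of 0.715.
Pmch had log2 values of 11.58, 6.86 and 7.75 in the saline arrays, 10.58, 10.50 and 8.44 in the 1 mg/kg arrays and 5.85, 10.95 and 11.63 in the 10 mg/kg ones. It thus spanned the arrays of every group, with its lowest value in 10 mg/kg replicate 1, where Isl1 was low as well. Its differences from saline were 1.11 and 0.75 (adjusted p = 0.915 for the second, limma).

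**Figure D4:**
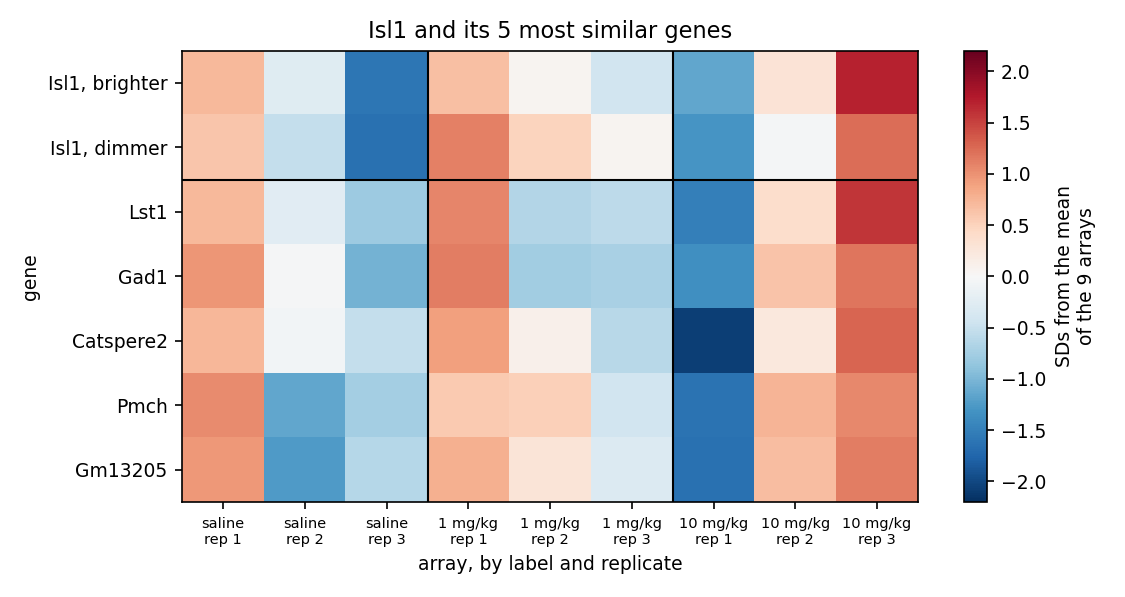
Values of the 2 probe sets of Isl1 and of its 5 most similar genes (rows) in the 9 arrays (columns), as SDs from the mean of each row over the arrays. 10 mg/kg replicate 1 is low and 10 mg/kg replicate 3 high in all rows.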

How the data were processed

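Expression in the substantia nigra was measured on 9 arrays. The authors used Robust Multichip Average to make the deposited log2 intensities, and its version is not given in the sources used here. ComBat over the 3 replicates is described too, and whether it was applied to these values is not stated. After 104 controls were left out of 45141 probe sets, 45037 stayed. Symbols came from the annotation of the platform (28898 probe sets name 1 gene, 551 several, and 15588 are not named here). Promoter sequences are those of RefSeq (GRCm38.p6).

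A linear model with terms for group and for replicate number (the block) was run on all of them in limma 3.58.1 (R 4.3.3), since the study treated replicates as batches. Benjamini-Hochberg adjustment covered all probe sets, and the threshold was 0.05. Deviations of arrays with the same number had correlations of -0.626 to -0.132, all negative, as values from which replicate means were already removed would give. The block may therefore repeat a correction that the deposited values hold. Without the block, limma passed 54 probe sets at 1 mg/kg and 115 at 10 mg/kg. The study, which describes limma after ComBat, reports these same numbers of genes with the doses exchanged. The deposited values thus appear to be those that the study tested. The linear model was tried on simulated data with independent noise, with and without a shift shared by arrays of the same number. Values already corrected for replicate were not simulated, so that trial does not bear on the choice of the block. P-values set a group difference against the spread between arrays that is left after these terms. The number of arrays limits the precision.

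The members and gene lists were chosen with earlier results of these data known. Named genes were all members, the lowest and highest gene of each list about acetylcholine, motor neurons, filaments and CGRP, defining markers of cell types, and the 5 genes most like Prph. The brightest probe set stood for a gene of a list. Lists of habenula, GABA, noradrenaline, sensory, cortical and oligodendrocyte genes were also made, and their counts are in the closing section.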

Additional observations from a re-analysis of the deposited data

How the results depend on the processing

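All p-values here are from limma. Without the replicate block 54 probe sets passed at 1 mg/kg and 115 at 10 mg/kg, against 0 with the block. With an intensity trend and the robust option 2 and 1 passed. After ComBat without the block 3152 and 2738 passed. The deposited values may already hold a correction for replicate, so ComBat may repeat it here. A fit without the block also takes no account of the spread that ComBat removes. The counts after ComBat are therefore not read as group differences. Leaving out 1 array at a time gave 0 to 1 in each comparison, with 1 without saline replicate 2. The other alternatives (only the 2 groups compared, a second quantile normalization, median centring, brighter probe sets only, array weights, and an adjusted p of 0.1) gave 0.

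No alternative passed a member's test at 10 mg/kg, and the block changed no call of a member. Prph kept a negative difference in all alternatives, from -1.39 to -0.90 at 1 mg/kg and from -0.76 to -0.18 at 10 mg/kg. Its adjusted p at 10 mg/kg was 0.124 to 0.793 (limma), with the lowest after ComBat without the block. Its low values at 1 mg/kg chose the genes, so the kept sign there tests nothing. The 10 mg/kg comparison shares the saline arrays with that choice. For the brighter Isl1 probe set, leaving out 1 array gave -0.19 to 0.68 and -0.26 to 0.97. At 10 mg/kg it changed sign without saline replicate 3 (-0.09) and without 10 mg/kg replicate 3 (-0.26). Slc18a3 at 10 mg/kg changed sign without 10 mg/kg replicate 2 (0.0128, with -0.110 to 0.0128 over the arrays left out), and at 1 mg/kg without saline replicate 3 (0.000558) and without 1 mg/kg replicate 3 (0.0412). Calcb at 10 mg/kg changed sign with array weights (-0.0147), without saline replicate 2 (-0.222) and without 10 mg/kg replicate 2 (-0.0726), and reached 0.237 without saline replicate 3. Restricted to brighter probe sets, Slc18a3, Slc5a7 and Calcb could not be fitted. Low signals and 3 arrays a group limit what can be seen. The cause of these changes was not tested.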

Other observations

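The lists not described above are given as counts, first at 1 mg/kg and then at 10 mg/kg. Of 8 habenula and interpeduncular genes 7 and 8 had negative differences (medians -0.30 and -0.23), with the nicotinic subunit Chrna5 lowest at -0.72 and -0.57 (standard error 0.25, adjusted p = 0.529 for the second, limma) and a correlation of 0.879 with Prph over the 9 arrays. Of 8 measured GABA neuron genes 1 and 4 were negative (medians 0.18 and -0.02), of 17 dopamine neuron genes 17 and 17 (-0.62 and -0.44), of 9 cortical genes 5 and 1 (-0.02 and 0.49), of 9 oligodendrocyte genes 5 and 7 (-0.09 and -0.28), of 4 noradrenaline neuron genes 1 and 2 (0.08 and 0.01) and of 7 sensory neuron genes 5 and 4 (-0.11 and -0.04). The cortical median at 10 mg/kg is that of Slc17a7, which was at 4.81 in 10 mg/kg replicate 1 and at 3.57 and 3.54 in replicates 2 and 3, against 3.29 to 3.64 in saline, and Icam5, Itpka and Neurod6 were also highest in that array. Both comparisons use the same saline arrays.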
